A study of Homo sapiens with 8 samples.

Results

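Messenger RNA of 9 genes of intestinal epithelial differentiation was followed in human colorectal cancer cells depleted of PrxII, the peroxiredoxin encoded by PRDX2. The genes were taken by name from the 25192 gene symbols of the expression tables and not by a threshold on their values. They comprise the transcription factors CDX1, CDX2, KLF4, KLF5, HNF4A and ATOH1 and the enterocyte genes VIL1, CDH17 and ALPI. All 9 symbols were listed in the tables, but their counts let fewer of them be tested, as given with each comparison.

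CDX1 and CDX2 are caudal-type homeobox factors that specify intestinal epithelium, and HNF4A is a nuclear receptor that maintains the enterocyte programme. KLF4 and KLF5 are zinc-finger factors that bind similar GC-rich elements, KLF5 being found mainly in dividing crypt cells and KLF4 in differentiated cells nearer the lumen. ATOH1 directs progenitors to the secretory lineages, VIL1 encodes the actin-bundling protein villin of the brush border, CDH17 encodes the intestinal adhesion protein LI-cadherin, and ALPI encodes intestinal alkaline phosphatase. Wnt signaling through β-catenin and TCF factors keeps crypt cells dividing and is constitutively active in colorectal cancers with truncated APC.

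The 4 groups were HT29 cells with control siRNA (siCon), HT29 cells with PRDX2 siRNA (siPrdx2), SW480 cells with siCon and SW480 cells with siPrdx2, each with 2 libraries made 36 h after transfection. HT29 and SW480 are established colorectal adenocarcinoma lines that both carry a truncated APC, and no group had intact APC. HT29 cells were grown in McCoy's 5A medium and SW480 cells in RPMI1840, so line and medium cannot be told apart. A difference between the lines likewise cannot be told apart from one between cultures or runs. The siRNA to PRDX2 used for these libraries is not given in the sources used here. The experiments are described as duplicates, with no word on whether these were separate cultures, so the p-values measure the spread between libraries, which may be technical. Levels are given as normalized CPM, which are counts per library total scaled by the trimmed mean of M values (TMM) over the 8 libraries, or, where genes are set against each other, as TPM, an abundance of transcripts that takes their length into account. Calls were made at an adjusted p of 0.05 in the quasi-likelihood test of edgeR, with p-values adjusted by the Benjamini-Hochberg method over all genes tested.

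Each library held from 8857442 to 10164137 expected counts in all. At these totals 3 counts, the limit that a count of 0 allows, are 0.292 to 0.335 CPM. The paper reports far more sequenced reads for each HT29 sample, and the sources used here do not say why the counts are fewer. PRDX2 (GRCh37 chr19:12907634-12912614, minus strand) was at 153 and 159 CPM in the HT29 controls and at 85.8 and 86.2 CPM after PRDX2 siRNA, and at 202 and 237 against 66.9 and 68.0 CPM in SW480 cells. The message was thus lower in every library labelled siPrdx2 (log2 fold change -0.87, adjusted p = 1.15e-09, and -1.70, adjusted p = 0.000617, edgeR). The epithelial genes EPCAM, CDH1, KRT8, KRT18 and KRT19 were present in every group, with CDH1 at a mean of 258 TPM in the HT29 and 12.2 TPM in the SW480 controls, and 8 markers of blood, endothelial and stromal cells summed to 2.22 to 10.7 TPM. Over all genes the HT29 duplicates differed by a chi-square per degree of freedom of 1.42 (controls) and 1.68 (siPrdx2), the SW480 siPrdx2 libraries by 2.08 and the SW480 controls by 10.6. SW480 siCon replicate 1 stood apart from the other SW480 libraries along GC content: the difference between the 2 controls had a Spearman correlation of 0.71 with transcript GC content across genes, and GC-rich genes such as CDX2 (59.6% GC, against a median of 48.6% over genes) and KLF4 (55.9%) were lower in it.

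CDX2 and KLF4 are shown with their promoters as examples. Both siPrdx2 libraries lay above both controls for CDX2 in either line and for KLF4 in SW480 cells, although KLF4 passed the test within neither line. The same order held for KLF5 in HT29 cells, where it passed the test, but the KLF5 windows are not printed here. RefSeq promoter windows (GRCh38.p14, 250 bases before to 50 bases after the start) were at hand for 6 of the 9 genes, in 8 windows, and CDX1, VIL1 and CDH17 had no entry. The CDX2 window lies at chr13:27969266-27969565 and the KLF4 window at chr9:107489720-107490019, both on the minus strand and printed 5′ to 3′ on the gene's strand. Capitals mark matches to a CDX motif (TTTATTG) in CDX2 and to a KLF motif (CCNCNCCC) in KLF4, either strand counted and overlapping matches merged.
CDX2 promoter: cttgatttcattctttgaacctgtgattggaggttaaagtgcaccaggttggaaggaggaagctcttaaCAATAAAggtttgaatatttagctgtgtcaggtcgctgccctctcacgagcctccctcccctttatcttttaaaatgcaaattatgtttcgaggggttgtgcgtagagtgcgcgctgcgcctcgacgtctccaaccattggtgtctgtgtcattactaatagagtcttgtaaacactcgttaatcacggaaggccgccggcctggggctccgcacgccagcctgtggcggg
KLF4 promoter: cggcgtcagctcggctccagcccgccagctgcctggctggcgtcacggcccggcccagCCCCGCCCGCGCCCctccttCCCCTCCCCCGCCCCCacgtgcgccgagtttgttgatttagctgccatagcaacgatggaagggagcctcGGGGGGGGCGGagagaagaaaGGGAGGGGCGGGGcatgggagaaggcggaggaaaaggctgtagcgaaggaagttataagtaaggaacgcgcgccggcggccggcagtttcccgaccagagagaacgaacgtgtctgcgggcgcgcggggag
The CDX2 window held 1 CDX match, on the opposite strand and starting 181 bases before the start, where 4.0% of 35116 promoter windows held one. The KLF4 window held 10 KLF matches, which overlap one another, and 56.2% of all windows held at least 1. The share of windows with as many matches was not counted. The windows were 50.3% GC for CDX2 and 69.0% GC for KLF4, against a median of 58.7% over all windows. A TCF/LEF motif (CTTTGAT, found in 2.62% of windows) matched in ATOH1 alone among the 8 windows, 148 bases before its start, and an HNF4 motif (CAAAGTCCA, 0.384% of windows) matched in none of them. A match describes letters only and no binding was measured.

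The first comparison asked what PrxII depletion did to these genes in HT29 cells. CDX2 rose 1.5-fold and KLF5 rose 1.11-fold, and no other gene of the group passed the test. In such bulk RNA, more cells with the message and more message per cell cannot be told apart. KLF4, HNF4A, VIL1 and CDH17 differed by less than 0.2 on the log2 scale, and CDX1 and ATOH1 were listed at low counts. Of the 9 genes, 7 had enough counts to be tested (at least 10 in at least 2 of the 4 libraries) and 2 were called, both higher, where 17.6% of all 12961 genes tested were called and 7.76% were called higher. Of the genes called, 44.1% were higher, or 69.6% when TPM values were compared with limma. Both siPrdx2 libraries lay above both controls for 2 of the 7, against 29.9% of all genes tested. The median log2 fold change of the 7 was 0.10, beside 0.00 over all genes.

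CDX2 (GRCh37 chr13:28535055-28543452, minus strand), the factor that specifies the posterior gut, was at 9.55 and 9.16 CPM in the HT29 controls and at 14.6 and 13.5 CPM after PRDX2 siRNA. The groups did not overlap, and the lower siPrdx2 library stood above the higher control. In counts the controls held 90 and 85 reads and the depleted libraries 144 and 124. The log2 fold change was 0.58 ± 0.14 (SE, n = 2 libraries per group, 95% interval 0.29 to 0.87, edgeR adjusted p = 0.00668). It was between 0.53 and 0.64 when each library was left out in turn, with adjusted p from 0.0124 to 0.0428. Fitted together with the SW480 libraries, whose spread is larger, the change was 0.58 with an adjusted p of 0.112. DESeq2 gave 0.59 with an unadjusted p of 0.0128 and no adjusted p, where the unadjusted p of edgeR was 0.000558.

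KLF5 (GRCh37 chr13:73629114-73651679, plus strand), the KLF of dividing crypt cells, was at 638 and 615 CPM in the HT29 controls and at 705 and 687 CPM after depletion. The groups did not overlap here either, but the rise was small. Its log2 fold change was 0.14 ± 0.03 (SE, n = 2 per group, interval 0.09 to 0.20, edgeR adjusted p = 0.000599), and 0.15 with an adjusted p of 0.372 when fitted with all 8 libraries. The small error goes with the many reads behind this gene, the most abundant of the 9 in HT29 cells.

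KLF4 (GRCh37 chr9:110247133-110252763, minus strand), the KLF of differentiated cells, was at 13.9 and 12.8 CPM in the HT29 controls and at 15.1 and 13.7 CPM after depletion. The lower siPrdx2 library fell within the range of the controls. The log2 difference was 0.10, with an interval of -0.16 to 0.37 (edgeR adjusted p = 0.640), so a rise of the size seen for CDX2 lies outside it. The difference between the 2 KLF genes in HT29 cells was not tested.

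HNF4A (GRCh37 chr20:42984339-43061485, plus strand), the nuclear receptor of the enterocyte programme, was at 88.7 and 94.7 CPM in the HT29 controls and at 90.2 and 87.1 CPM after depletion. Its libraries overlapped between the groups, and the interval of the log2 difference (-0.06) ran from -0.17 to 0.06. VIL1 (GRCh37 chr2:219283844-219318018, plus strand), a structural gene of the microvillus, was at 165 and 168 CPM in the controls and at 162 and 167 CPM after depletion. The libraries overlapped again, and the interval of its log2 difference (-0.02) ran from -0.11 to 0.07, the narrowest after that of KLF5. When TPM values were compared with limma, a scale on which the median of all genes was 0.06, the differences were 0.01 for HNF4A and 0.04 for VIL1.

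Among the genes of low level, CDX1 (GRCh37 chr5:149546341-149564121, plus strand), the homeobox relative of CDX2, held 20 and 18 counts in the HT29 controls and 11 and 18 counts after depletion. The 2 groups met at 18 counts, and the log2 difference of -0.42 had an interval of -1.19 to 0.36 (edgeR adjusted p = 0.490), so that a rise of the CDX2 size lies outside the interval while a fall to under the level of the controls does not. ATOH1 (GRCh37 chr4:94749904-94752115, plus strand), the secretory lineage factor, held 16 and 9 counts in the controls and 3 and 5 counts after depletion. Every depleted library lay below every control, but only 1 library reached 10 counts and the gene was not among those tested. The ratio of its summed counts, 8 against 25, was 0.315 after normalization with a 95% interval of 0.123 to 0.720 that covers counting error only, and without the filter on low counts its log2 difference was -1.67 (edgeR adjusted p = 0.0694).

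ALPI (GRCh37 chr2:233320835-233325463, plus strand), the alkaline phosphatase of the enterocyte surface, held 0 and 0 counts in the HT29 controls and 1 and 0 counts after depletion. It was thus not detectable at these count totals in HT29 cells.

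The same question was asked in SW480 cells, where no gene of the group passed the test. CDX2 was 1.36-fold and KLF4 1.36-fold higher in the fit, each with both siPrdx2 libraries above both controls, while KLF5, HNF4A and VIL1 differed by at most 0.11 on the log2 scale. Of the 9 genes, 5 could be tested and 0 were called, against 3.32% of all 14112 genes. DESeq2 and limma also called 0 at an adjusted p of 0.05. At an unadjusted p under 0.05, edgeR, DESeq2 and limma each gave CDX2 and KLF4. The share of all genes under this unadjusted cut was not counted. Such counts, here and below, are therefore no result about the group or the lists. Of the genes called in SW480 cells, 36.8% were higher, or 58.9% and 60.5% with limma on TPM values plus 1 and plus 0.1, 49.7% with a replicate block and 47.2% with a GC offset. Both siPrdx2 libraries lay above both controls for 2 of the 5 and for 29.6% of all genes tested. The median log2 difference of the 5 was 0.06, beside 0.00 over all genes.

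CDX2 was at 19.1 and 22.7 CPM in the SW480 controls and at 26.7 and 30.0 CPM after depletion. The groups did not overlap, but the controls lay further apart than in HT29 cells. The log2 difference was 0.44 ± 0.15 (SE, n = 2 per group, interval 0.09 to 0.79, edgeR adjusted p = 0.132). It was 0.32 (adjusted p = 0.0466) without siCon replicate 1, which stands apart along GC content, 0.57 (adjusted p = 0.000274) without siCon replicate 2, and 0.25 (adjusted p = 0.118) with an offset for GC content, and without either siPrdx2 library the adjusted p was 0.639 or 0.868.

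KLF4 was at 17.4 and 19.1 CPM in the SW480 controls and at 25.4 and 24.3 CPM after depletion. Both pairs were close together and apart from each other. The log2 difference was 0.44 ± 0.15 (SE, n = 2 per group, interval 0.11 to 0.78, edgeR adjusted p = 0.122). It was 0.37 (adjusted p = 0.0317) without siCon replicate 1, 0.51 (adjusted p = 0.00204) without siCon replicate 2, 0.42 (adjusted p = 0.769) and 0.47 (adjusted p = 0.785) without siPrdx2 replicates 1 and 2, and 0.32 (adjusted p = 0.0614) with the GC offset. Fitted with all 8 libraries, which share one estimate of the spread, CDX2 and KLF4 passed the test in SW480 cells with adjusted p of 0.0386 and 0.0313. The part of GC content in either difference was not tested.

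KLF5 was at 162 and 158 CPM in the SW480 controls and at 154 and 141 CPM after depletion. Both depleted libraries lay below both controls, the opposite order to that in HT29 cells, but the log2 difference of -0.11 had an interval of -0.36 to 0.13 (edgeR adjusted p = 0.536). HNF4A was at 40.6 and 50.9 CPM in the controls and at 46.6 and 46.4 CPM after depletion, both between the controls, with an interval of -0.29 to 0.34. VIL1 was at 50.5 and 52.8 CPM in the controls and at 51.0 and 56.7 CPM after depletion, overlapping as well, with an interval of -0.21 to 0.34. These intervals are wider than in HT29 cells, yet a rise of the size seen for CDX2 or KLF4 in SW480 cells lies outside all 3 of them.

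The other 4 genes were below the count filter in SW480 cells. CDX1 held 1 and 2 counts in the controls and 2 and 1 counts after depletion, a ratio of 0.917 with a counting interval of 0.123 to 6.85. CDH17 held 5 and 7 counts against 7 and 11 counts, a ratio of 1.38 with an interval of 0.627 to 3.13. ATOH1 held 0 counts in all 4 SW480 libraries. ALPI held 2 and 4 counts in the controls and 0 and 0 counts after depletion, which is at the limit that a count of 0 allows. Its placental relative ALPP held 48.0 and 59.9 counts in the same controls.

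**Figure D1:**
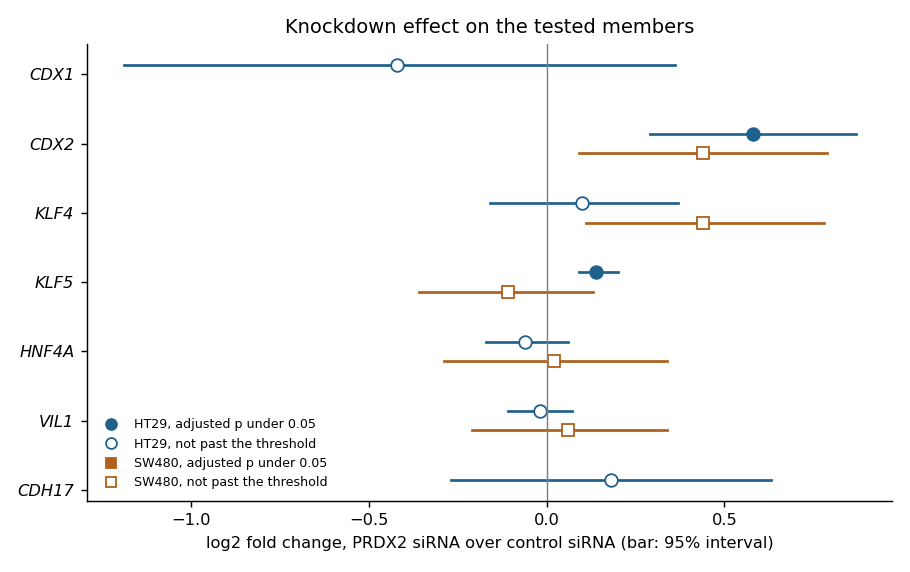
Log2 fold change of PRDX2 siRNA over control siRNA (horizontal axis) for the genes tested, with 95% intervals from edgeR, circles for HT29 and squares for SW480 cells, filled where the adjusted p was under 0.05. CDX2 in HT29 (0.58) and KLF5 in HT29 (0.14) are filled, and the SW480 values of CDX2 and KLF4 (0.44 each) are open with intervals above zero.

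Whether the 2 lines responded unequally to PrxII depletion was tested as the HT29 change minus the SW480 change in a fit of all 8 libraries. None of the 7 genes tested passed it, 0 of 7 against 1.12% of all 14772 genes, with 1 at an unadjusted p under 0.05 in edgeR. DESeq2 and limma also called 0 at an adjusted p of 0.05. Over all genes 54.8% of these calls were higher in HT29 cells, or 42.7% with limma on TPM values plus 1. PRDX2 itself was called, with a difference of 0.84 (interval 0.57 to 1.11, edgeR adjusted p = 0.0128), its message falling further in SW480 cells. The depletion was thus unequal, and an unequal response to it cannot be told apart from an unequal depletion. CDX2 was the single gene of the 5 tested in both lines whose siPrdx2 libraries lay above both controls in each line, as did 11.1% of the 12331 genes tested in both. The CDX2 changes differed by 0.14, with an interval of -0.30 to 0.58 that leaves room for a larger rise in either line (edgeR adjusted p = 0.738). This value was 0.36 (adjusted p = 0.227) with the GC offset, 0.26 (adjusted p = 0.445) without SW480 siCon replicate 1 and 0.00 (adjusted p = 1.0) without SW480 siCon replicate 2. The KLF4 changes differed by -0.34 (interval -0.73 to 0.06, adjusted p = 0.329), KLF4 having the larger value in SW480 cells, and by -0.21 (adjusted p = 0.502) with the GC offset.

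KLF5 had the smallest p of the group in this test. Its HT29 change exceeded its SW480 change by 0.26 on the log2 scale (interval 0.05 to 0.47, edgeR adjusted p = 0.178). The difference was 0.25 (adjusted p = 0.0166) without SW480 siCon replicate 1 and 0.26 (adjusted p = 0.00248) without SW480 siCon replicate 2, and was not called when any other library was left out. HNF4A differed between the lines by -0.08 (adjusted p = 0.823), or by -0.26 (adjusted p = 0.0467) without SW480 siCon replicate 2, and VIL1 by -0.08 (adjusted p = 0.742). CDH17 (-0.28) and CDX1 (-0.29) rest on few SW480 counts, and their sign turned when single libraries were left out.

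The last comparison set the levels of the genes in the 2 lines under control siRNA against each other. HT29 cells had more KLF5, VIL1, HNF4A, CDH17 and CDX1 message, SW480 cells had more CDX2 and KLF4 message, and ATOH1 was found in HT29 cells alone. Of the 9 genes, 7 were tested and 7 were called, 5 higher and 2 lower in HT29 cells. With so different lines this is no mark of the group, since 67.5% of all 14346 genes tested were called, 31.8% higher and 35.7% lower. The share of higher calls was 47.1%, or 60.8% with a GC offset. CDX1 and CDH17 passed the count filter through the HT29 libraries, where they are high, and so had to differ. The median of the 7 was 1.68 on the log2 scale and that of all genes -0.04, which an offset for GC content moved to 0.22 and the TPM values with limma to -0.15 or -0.16.

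KLF5 stood at 392 TPM in HT29 and at 110 TPM in SW480 controls, a log2 difference of 1.97 ± 0.09 (SE, n = 2 per group, edgeR adjusted p = 4.14e-07). VIL1 stood at 128 and 43.5 TPM, a log2 difference of 1.68 ± 0.11 (adjusted p = 2.32e-06), and HNF4A at 43.6 and 23.6 TPM, a log2 difference of 1.00 ± 0.14 (adjusted p = 0.000234). In each of these 3 genes every HT29 control lay above every SW480 control. CDX2 went the other way, at 8.41 TPM in HT29 and 20.5 TPM in SW480 controls, with a log2 difference of -1.16 ± 0.18 (adjusted p = 0.000442). KLF4 was at 9.57 and 14.3 TPM, a log2 difference of -0.45 ± 0.16 (adjusted p = 0.0365), which was -0.16 (adjusted p = 0.270) with the GC offset, -0.46 (adjusted p = 0.154) with DESeq2, and -0.48 (adjusted p = 0.220) and -0.37 (adjusted p = 0.353) without HT29 siCon replicates 1 and 2.

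CDX1 summed to 38 counts in the HT29 and 3 counts in the SW480 controls, a ratio of 12.7 with a counting interval of 4.02 to 64.1. CDH17 (GRCh37 chr8:95139390-95229531, minus strand) summed to 102 and 12 counts, a ratio of 8.50 with an interval of 4.66 to 17.0. In HT29 cells CDH17 was at 5.63 and 5.28 CPM with siCon and at 5.08 and 7.41 CPM with siPrdx2, so that the depleted libraries lay on both sides of the controls (log2 difference 0.18, interval -0.27 to 0.63, edgeR adjusted p = 0.626). ATOH1 was at least 3.99-fold higher in the HT29 controls, with 25 counts against 0 and the floor set at 3 counts per library. ALPI was not compared, since 0 counts in HT29 and 6 counts in SW480 controls leave both near the floor.

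Per length, the order in the HT29 controls ran from KLF5 over VIL1, HNF4A, KLF4 and CDX2 to CDH17, ATOH1 and CDX1, with ALPI listed at 0. In SW480 controls CDX2 stood next to HNF4A and above KLF4. The libraries of neighbours overlapped for CDH17, ATOH1 and CDX1 in HT29 cells, and for HNF4A and CDX2 and again for CDH17, ALPI and CDX1 in SW480 cells. After PRDX2 siRNA CDX2 (mean 13.1 TPM) stood above KLF4 (10.8 TPM) in HT29 cells, and in SW480 cells CDX2 (29.7 TPM) stood above HNF4A (25.5 TPM). This exchange of places describes the libraries and was not tested.

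**Figure D2:**
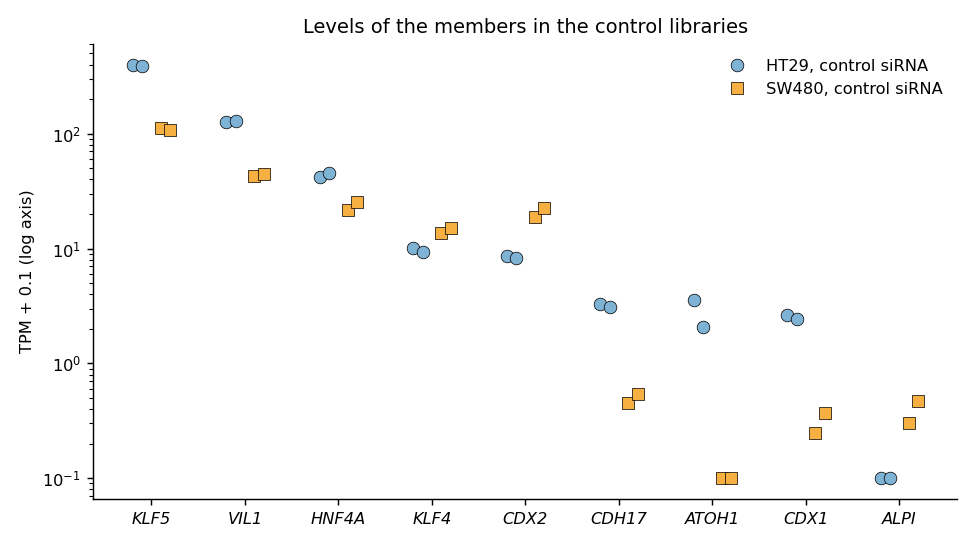
TPM plus 0.1 on a log axis for the 9 genes in the control libraries, ordered by the HT29 mean, with circles for HT29 and squares for SW480 cells and a point per library. KLF5, VIL1 and HNF4A were higher in HT29 cells, CDX2 (8.41 against 20.5 TPM) and KLF4 (9.57 against 14.3 TPM) were higher in SW480 cells, and ATOH1 sits at the floor of the axis in SW480 cells.

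Further intestinal transcription factors gave the setting for the members in HT29 cells. Of 18 listed, 11 were tested, 3 were higher and 1 lower, with a median of 0.23, where 17.6% of all genes tested in HT29 cells were called and 7.76% were called higher. FOXA3 (0.40, edgeR adjusted p = 0.0296), FOXA1 (0.24, adjusted p = 0.000791), both forkhead factors of gut endoderm, and ELF3 (0.23, adjusted p = 7.60e-05), an epithelial ETS factor, rose together with CDX2. VDR, the vitamin D receptor, fell by 0.27 (adjusted p = 0.0109). With limma on TPM values the adjusted p was 0.0508 for FOXA3 and 0.116 for VDR. No gene named in HT29 or SW480 cells from this or the following lists turned its direction under 6 processing alternatives, but calls were lost. These alternatives are not changes of scaling alone, since limma is also another test. Of the 6 in HT29 cells, 2 called VDR, 3 called FOXA3, and 5 called each of FOXA1 and ELF3. From the following lists LYZ was called in 3, CDHR5 and DLL4 in 4 each, and KRT20 in 6. In SW480 cells 11 were tested and 0 called, with 3 at an unadjusted p under 0.05 and a median of -0.06.

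Other KLF genes did not move one way in HT29 cells. Of 11 listed, 10 were tested and 3 called, against 17.6% of all genes. KLF10 (0.32, edgeR adjusted p = 0.000176) and KLF6 (0.23, adjusted p = 0.000651) rose beside KLF5, and KLF16 fell by 0.47 (adjusted p = 0.000808), with a median of 0.00. In SW480 cells 11 were tested and 0 called, with 2 at an unadjusted p under 0.05 and a median of 0.12.

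Enterocyte genes beyond the members were mostly too low to test, 9 of 40 in HT29 and 6 of 40 in SW480 cells. KRT20, a keratin of mature colonic epithelium, stood at 475 and 463 CPM in the HT29 controls and at 627 and 611 CPM after depletion, a rise of 0.39 (edgeR adjusted p = 1.12e-08). DPP4, a brush border peptidase, rose by 0.27 (adjusted p = 0.00264), and the median of the 9 was 0.07. These were 2 calls of 9, against 17.6% of all genes in HT29 cells. SLC9A3, the apical sodium-proton exchanger, stood at 19.9 and 29.6 CPM in the SW480 controls and at 55.9 and 56.2 CPM after depletion. Its rise of 1.18 (adjusted p = 0.0141) was the 1 call among the 6, whose median was 0.11, against 3.32% of all genes in SW480 cells. Under 6 processing alternatives the SLC9A3 rise ran from 0.95 to 1.30. Its lower control value, 19.9 CPM, came from siCon replicate 1, which stands apart along GC content.

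Of 15 brush border genes, the setting of VIL1, 13 were tested in HT29 cells and 1 was called, against 17.6% of all genes. CDHR5, a protocadherin that links microvilli, fell by 0.55 (edgeR adjusted p = 0.00375), and the median was 0.00, as for all genes. In SW480 cells 10 were tested and 0 called, with 6 at an unadjusted p under 0.05 and a median of -0.23. The share of all SW480 genes at that unadjusted cut was not counted, so the 6 are no mark of the list.

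Of 29 genes listed for the secretory lineages, which ATOH1 directs, 16 were tested in HT29 cells, 1 was higher and 3 were lower, against 17.6% of all genes called. The list also holds Notch pathway genes such as HES1 and DLL4, so its counts and medians are not of secretory genes alone. SPDEF, the factor of goblet cell maturation, fell by 0.55 (edgeR adjusted p = 7.08e-05), AGR2, a secretory-cell protein of the endoplasmic reticulum, by 0.22 (adjusted p = 0.000193) and LYZ, the lysozyme of Paneth cells, by 0.09 (adjusted p = 0.000288, or 0.475 with limma on TPM values), while the Notch ligand DLL4 rose by 0.58 (adjusted p = 0.0100). The median was 0.06. In SW480 cells 15 were tested and 0 called, with 4 at an unadjusted p under 0.05 and a median of 0.21. Of the 5 epithelial genes, KRT8, KRT18 and KRT19 were called lower in HT29 cells (by 0.14, 0.26 and 0.28), against 17.6% of all genes called. With limma on TPM values KRT8 fell by 0.07 (adjusted p = 0.0475). In SW480 cells KRT18 was called lower, against 3.32% of all genes called. It fell by 0.37, or by 0.28 with an adjusted p of 0.115 with limma on TPM values.

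Between the lines under control siRNA the lists are given by their counts, beside the 67.5% of all genes called. Of the 68 genes of these lists that were tested, 15 passed the count filter through the HT29 and 10 through the SW480 libraries alone, where they are high, and so had to differ. The other intestinal factors were higher in HT29 cells for 9 and lower for 4 of 13 tested, with FOXA1 at 6.75. The brush border genes were higher for 11 and lower for 1 of 13, with CDHR5 at 172 and 170 counts in HT29 and 1 and 1 counts in SW480 cells, and enterocyte genes higher for 8 and lower for 3 of 12, with DPP4 at 5.05 and SLC9A3 at -4.69. Secretory genes were higher for 12 and lower for 6 of 19, AGR2 being at least 1200-fold higher and SPDEF at least 125-fold higher in HT29 cells. The other KLF genes were higher for 6 and lower for 3 of 11. These values other than counts and bounds are log2 differences from the edgeR fit.

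The genes whose pattern over the 8 libraries was most like that of each member were found by the root mean square difference of their centred log2(CPM + 1) values, among 11804 candidates. For CDX2 they were SEC14L2 (0.101) and SLC7A5 (0.103), both higher in SW480 cells and higher again after depletion. SLC7A5, an amino acid transporter, averaged 416 and 547 CPM in HT29 and 918 and 1110 CPM in SW480 cells without and with PRDX2 siRNA. For KLF4 they were LRRC8A (0.0652) and STAT5B (0.0655), for KLF5 CORO2A (0.0607), and for HNF4A ETFB (0.0414) and ARF1 (0.0458). VIL1 was closest to C15orf41 (0.0484) and SNUPN (0.0554), and CDH17 to SLC45A3 (0.110) and SRC (0.126). The difference between the lines makes up most of these patterns, and the measure is a description with no test.

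**Figure D3:**
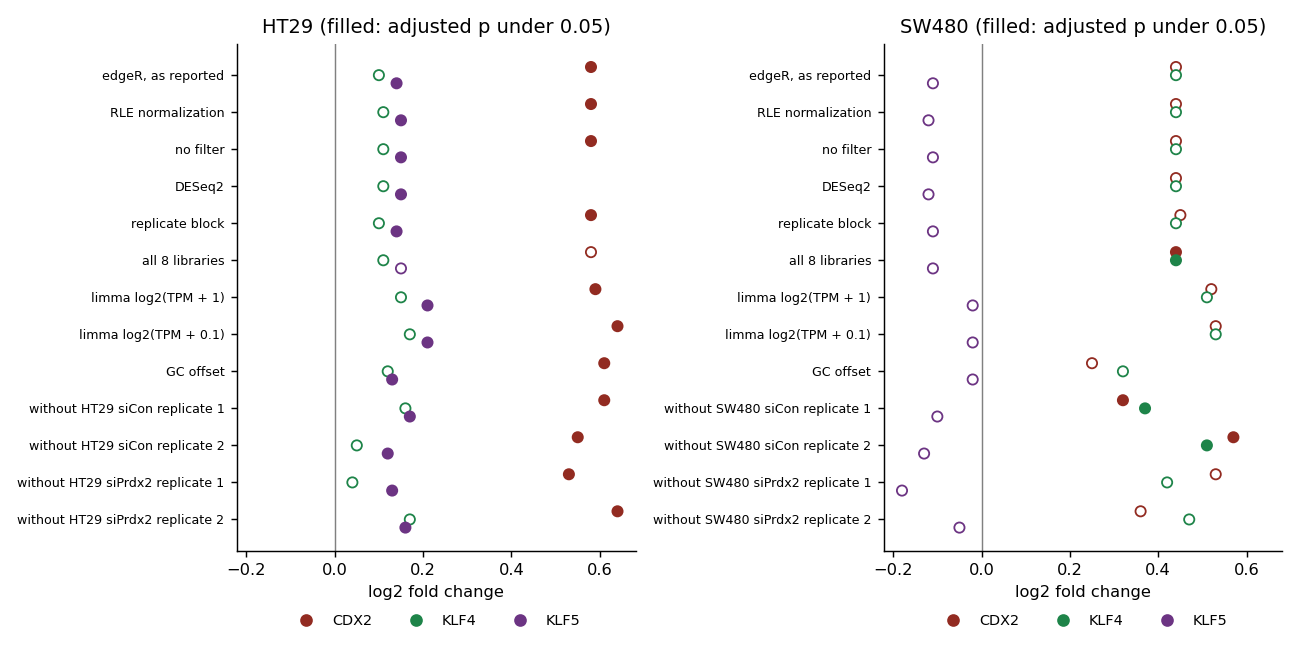
Log2 fold change of PRDX2 siRNA over control siRNA (horizontal axis) for CDX2, KLF4 and KLF5 under each processing alternative (rows), HT29 cells left and SW480 cells right, filled where the adjusted p was under 0.05 and with no point for CDX2 in HT29 cells under DESeq2, which gave no adjusted p. CDX2 stayed between 0.53 and 0.64 in HT29 and between 0.25 and 0.57 in SW480 cells, where the filled points belong to the fit of all 8 libraries and to the fits without either control.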

How the data were processed

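Messenger RNA libraries (TruSeq v2 kit) were grouped by cell line and siRNA from the sample labels. The authors mapped paired reads to hg19 by MapSplice, estimated expression per gene symbol with RSEM and deposited its expected counts, together with TPM values, which RSEM scales by effective length to a fixed total. FPKM values were not used. The tools FastQC and DESeq2 are named in the submitters' processing notes, and the strand setting is not given in the sources used here.

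Expected counts were rounded and fitted with edgeR 4.0.16 (R 4.3.3, TMM, glmQLFit and glmQLFTest) within each line, between lines under control siRNA, and over all 8 libraries for the difference of effects. A gene was tested where 2 or more fitted libraries held 10 or more counts. Alternatives were DESeq2 1.42.0, RLE scaling, a replicate block, no filter, 1 fit of all 8 libraries, limma 3.58.1 on log2 TPM (pseudocount 1 or 0.1), a loess offset for transcript GC content (span 0.5, 91.4% of genes matched), and leaving out each library, where the lone library was assumed to vary like the other group. Counting intervals are exact at 95% and cover counting error only. Scripts were tested on simulated counts.

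The 9 genes and the lists (intestinal factors, KLF genes, enterocyte, brush border, secretory and epithelial genes, alkaline phosphatases, and other cell types) were chosen with earlier results of these data known. From each list and comparison, at most 5 called genes with a mean of at least 5 CPM were named, by size of change. For the members of at least 1 CPM, the 2 genes of nearest pattern were named. Some of the genes that these rules take are not reported here.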

Additional observations from a re-analysis of the deposited data

Results flagged for a closer look

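VDR, 1 of 13 tested from the list of other intestinal factors, was the 1 gene of the lists called in the test of the difference itself. Of all 14772 genes tested, 1.12% were called in it, so 1 call is no mark of the lists. The HT29 change minus the SW480 change was -0.67 ± 0.12 on the log2 scale (SE, interval -0.94 to -0.41, edgeR adjusted p = 0.0315). VDR stood at 47.3 and 48.6 CPM in the HT29 controls and at 39.9 and 40.3 CPM after depletion, and at 65.6 and 70.3 against 93.0 and 87.2 CPM in SW480 cells. The adjusted p was 0.0515 with limma on TPM values plus 1, with a difference of -0.68. Of 5 processing alternatives, 3 called VDR, with differences from -0.70 to -0.58. PRDX2 itself also fell unequally in the 2 lines, as given with the test of the difference.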

How the results depend on the processing

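With 2 libraries a group, calls rest on the spread that the fit borrows across genes, and members under about 10 counts could not be tested. Genes called in HT29 cells went from 2279 to 1025 with DESeq2 and to 185 with all 8 libraries. Members called there went from 2 to 1 with DESeq2 and to 0 with all 8. DESeq2 gave CDX2 (0.59) an unadjusted p of 0.0128 and no adjusted p. In SW480 cells the genes called went from 468 to 1727 with a replicate block, 2415 with all 8 libraries, 214 and 177 with limma on TPM plus 1 and plus 0.1, and 2428 with the GC offset, and the members from 0 to 2 with all 8. Genes called for the difference between lines went from 166 to 267 without the filter, 300 with DESeq2, 103 and 43 with limma, and 991 with the GC offset. Leaving out each library gave 1563 to 2030 genes in HT29, 87 to 7363 in SW480, 6 to 5237 for the difference and 6905 to 9969 between the control groups, and 0 to 2, 0 to 2 and 4 to 7 members in the last 3. The highest SW480 and difference counts came without SW480 siCon replicate 2 and the next (3437 and 1371) without SW480 siCon replicate 1, and the 4 members came without either HT29 control, where CDX1 and CDH17 fell under the filter. The cause of these shifts was not tested.

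Direction turned for values near zero. In HT29 cells HNF4A was 0.01 and VIL1 0.04 with both limma scales, and over the left-out libraries VIL1 ran from -0.04 to 0.01 and CDH17 from -0.11 to 0.44. In SW480 cells HNF4A was -0.08 with the GC offset and ran from -0.13 to 0.19, and VIL1 from -0.02 to 0.14. For the difference HNF4A was 0.03 with the GC offset and ran from -0.26 to 0.08, CDX1 from -0.83 to 0.30 and CDH17 from -0.57 to 0.06.

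The replicate numbers are in the labels with nothing that ties them to a shared day or culture, and same-numbered libraries deviated together with correlations of 0.0785, 0.112 and 0.0948 in the 3 comparisons. With the replicate block 2889 genes were called in HT29 and 196 for the difference, and CDX2 was 0.58 (adjusted p = 0.00220, edgeR) in HT29 and 0.45 (adjusted p = 0.0697) in SW480 cells. The block changed no call of a member.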

Other observations

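Alkaline phosphatase reads in SW480 cells lay mostly at ALPP, the placental enzyme, and not at ALPI. ALPP held 48.0 and 59.9 counts in the SW480 controls and 46.8 and 45.8 counts after depletion, against 1 and 0 counts in the HT29 controls. Its knockdown difference in SW480 cells was -0.34 and did not pass the test. Of the 3 related phosphatases ALPP, ALPPL2 and ALPL, ALPP alone had enough counts to be tested.

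The 8 markers of blood, endothelial and stromal cells summed to 2.22 to 3.24 TPM in HT29 and 8.93 to 10.7 TPM in SW480 libraries, and 2 of the 8 held 0 counts in every library.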
